A study of Mus musculus with 103 samples.

Results

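Mucins are the glycoproteins that give mucus its body and coat the free surface of lining epithelia. The genes described here are Muc1, Muc2, Muc4, Muc5ac, Muc5b, Muc6, Muc13 and Muc20, taken by name from the array annotation in every group of mouse samples. Of these 8 genes, 6 had a probe set assigned to them alone (9 probe sets), out of 17097 genes and 28898 probe sets in the whole series. Muc2 and Muc6 had none in the annotation used and were not analysed here.

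The series held 103 arrays in 29 groups, each a mouse tumour, a metastasis or a preparation of sorted cells, and by its design text Prom1-expressing cells were traced and made oncogenic in several organs. The tumours used most here were gastric adenoma (n = 7), gastric adenocarcinoma (n = 4), small intestinal adenoma (n = 3), large intestinal adenoma (n = 5), uterine carcinoma (n = 3) and bronchopulmonary adenocarcinoma, here lung adenocarcinoma (n = 2). Also measured were prostatic adenocarcinoma (n = 8), liver tumours labelled hepatocellular carcinoma/cholangiocarcinoma and shortened to HCC/CC (n = 14), hepatoblastoma (n = 2), and 7 single metastases. Squamous cell carcinomas came from periorbital (n = 1), perioral (n = 3) and perineal (n = 4) sites. Cells bound by beads against Prominin1, the protein of Prom1, came from stomach (n = 2), uterus (n = 4), small intestine (n = 3), lung (n = 4), kidney (n = 4), salivary gland (n = 3), prostate (n = 3) and liver. Liver cells were neonatal (n = 3), or came from animals given DDC, a compound that injures liver and bile ducts (n = 9), or from untreated ones (n = 5). The labels give no genotype, strain, age or animal for a sample, nor the alleles carried by the tumour groups, so a p-value reflects the spread of these samples and no more, which may be technical. Prom1 itself averaged 10.12 in gastric adenomas, with 1 at 2.87, and 11.99 in stomach cells, and ranged from 3.68 to 8.02 in gastric adenocarcinomas.

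Tumours were dissected whole and extracted with one kit, and the cells of the organs were sorted and extracted with another. In every comparison of a tumour with cells, tumour state and isolation therefore cannot be told apart. The samples are mixtures, and fewer cells of a type and less RNA per cell cannot be told apart either. Values are log2 levels per gene. Background was set at about 4.1, the 40th percentile of the values of all genes, and was not measured. Levels there and below are taken to lie near the background of the array, so a difference against such a level is a lower bound. Array medians ran from 3.82 to 4.24. The levels of 1 gene were compared between groups, never those of different genes, because probe sets differ in brightness.

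Mucins are of 2 kinds. Muc5ac and Muc5b, like Muc2 and Muc6, are secreted and join into the gel of mucus: MUC5AC is the mucin of surface cells of the stomach, MUC6 of its glands, MUC2 of goblet cells of the gut, and MUC5B of airway and cervical glands in humans. Muc1, Muc4, Muc13 and Muc20 are held in the membrane at the apical surface. Muc1 is carried by most glandular epithelia, Muc13 mainly by the gut lining, and Muc4, whose rat form binds the receptor ErbB2, by gut, airway and uterine epithelium. All are built with serine and threonine repeats, to which sugar chains are attached in the Golgi, and the gel-forming ones are packed into granules before release.

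In the RefSeq annotation of GRCm38.p6, Muc6, Muc2, Muc5ac and Muc5b follow one another on chromosome 7. Muc4, Muc20 and Muc13 lie on chromosome 16, where Muc4 and Muc20 have overlapping ends and run in opposite directions, and Muc1 lies on chromosome 3 beside Trim46. The RefSeq promoter table held windows for 4 of the 6 measured genes, running from 250 bases before a start to 50 after it, and no window for Muc5ac or Muc5b. They are shown because these 4 genes, all of membrane mucins, were called in the comparisons of stomach, gut or lung described below. Capitals mark matches on either strand to 6 motifs. The core promoter box was searched as TATAAA and the Sp1 box as GGGCGG. The motif of Gata factors was searched as AGATAA and that of forkhead factors as TGTTTNC. For Cdx factors it was TTTATNG, and for Snail and related factors CACCTG.
Muc1, chr3:89228806-89229105, plus strand: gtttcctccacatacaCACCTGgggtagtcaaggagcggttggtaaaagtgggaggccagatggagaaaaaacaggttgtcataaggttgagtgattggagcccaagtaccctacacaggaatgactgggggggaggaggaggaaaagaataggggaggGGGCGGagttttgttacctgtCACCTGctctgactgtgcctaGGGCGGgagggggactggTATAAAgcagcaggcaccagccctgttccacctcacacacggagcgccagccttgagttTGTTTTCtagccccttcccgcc
Muc4, chr16:32735636-32735935, plus strand: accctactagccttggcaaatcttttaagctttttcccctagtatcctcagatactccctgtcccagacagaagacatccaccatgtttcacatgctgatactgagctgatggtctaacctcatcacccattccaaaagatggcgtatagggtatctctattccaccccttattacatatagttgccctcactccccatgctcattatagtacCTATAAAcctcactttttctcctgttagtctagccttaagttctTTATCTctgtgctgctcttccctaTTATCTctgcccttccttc
Muc13, first start, chr16:33793787-33794086, plus strand: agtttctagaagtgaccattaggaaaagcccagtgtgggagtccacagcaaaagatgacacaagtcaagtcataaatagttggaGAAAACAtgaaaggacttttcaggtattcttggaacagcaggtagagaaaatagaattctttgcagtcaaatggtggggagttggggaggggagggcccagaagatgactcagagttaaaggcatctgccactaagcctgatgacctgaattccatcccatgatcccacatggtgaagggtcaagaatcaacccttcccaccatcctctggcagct
Muc20, chr16:32797386-32797685, minus strand: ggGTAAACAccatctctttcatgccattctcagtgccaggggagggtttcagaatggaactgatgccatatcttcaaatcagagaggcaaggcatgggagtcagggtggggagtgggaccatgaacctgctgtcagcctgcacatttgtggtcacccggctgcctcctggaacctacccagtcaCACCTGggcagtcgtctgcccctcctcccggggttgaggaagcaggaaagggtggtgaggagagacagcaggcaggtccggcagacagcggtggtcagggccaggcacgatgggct
The Muc1 window held TATAAA at -31, GGGCGG at -91 and -49, CACCTG at -234 and -70, and TGTTTNC at 29, counted from the start. The Muc4 window held TATAAA at -36, a TTTATNG match at -37 that overlaps it, and AGATAA on the reverse strand at 8 and 32. The Muc13 window had a single match, TGTTTNC on the reverse strand at -166, and the window of its other start had none. Muc20 had TGTTTNC on the reverse strand at -248 and CACCTG at -66. Of 32851 windows of this length, 13.6% held TATAAA, 35.7% GGGCGG, 11.2% AGATAA, 20.5% TGTTTNC, 10.9% TTTATNG and 20.2% CACCTG. A match describes letters only and was not tied to binding of any factor.

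Among 21 groups with at least 2 samples, the group mean exceeded background in 15 for Muc1 and 14 for Muc13, in 7 for Muc4, 6 each for Muc20 and Muc5ac, and 5 for Muc5b. These counts depend on the probe set used and do not rank how widely the genes are expressed. In untreated liver cells, for example, the Muc13 probe set used averaged 3.8, while the other read 4.45 to 5.11. Muc1 was highest in lung adenocarcinoma (mean 11.70), followed closely by gastric adenoma, and lowest in perineal squamous carcinoma (mean 3.24). Muc13 was highest in large intestinal adenoma (mean 11.63), and Muc20 in lung adenocarcinoma (mean 8.29). Muc4 (mean 7.55) and Muc5ac (mean 11.76) had their highest group mean in gastric adenoma, and Muc5b in lung adenocarcinoma (mean 6.61). In the order of group means, neighbouring groups mostly overlapped. Near the top of the order, some neighbours did not overlap. For Muc1 these were stomach cells and uterine carcinoma, and gastric adenocarcinoma and neonatal liver cells. For Muc5ac these were stomach cells and gastric adenocarcinoma, for Muc20 uterine carcinoma and prostate cells, and for Muc4 large intestinal adenoma and stomach cells. Except for Muc5ac, groups further down overlapped across these steps. For Muc1, uterus cells reached 10.68, above the lowest stomach sample (10.17), and HCC/CC reached 10.07, above the lowest gastric adenocarcinoma (7.34). Gastric adenoma reached 6.76 for Muc20, above the lowest uterine carcinoma (6.36). Prostatic adenocarcinoma reached 5.43 for Muc4, above the lowest large intestinal adenoma (4.29).

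**Figure D1:**
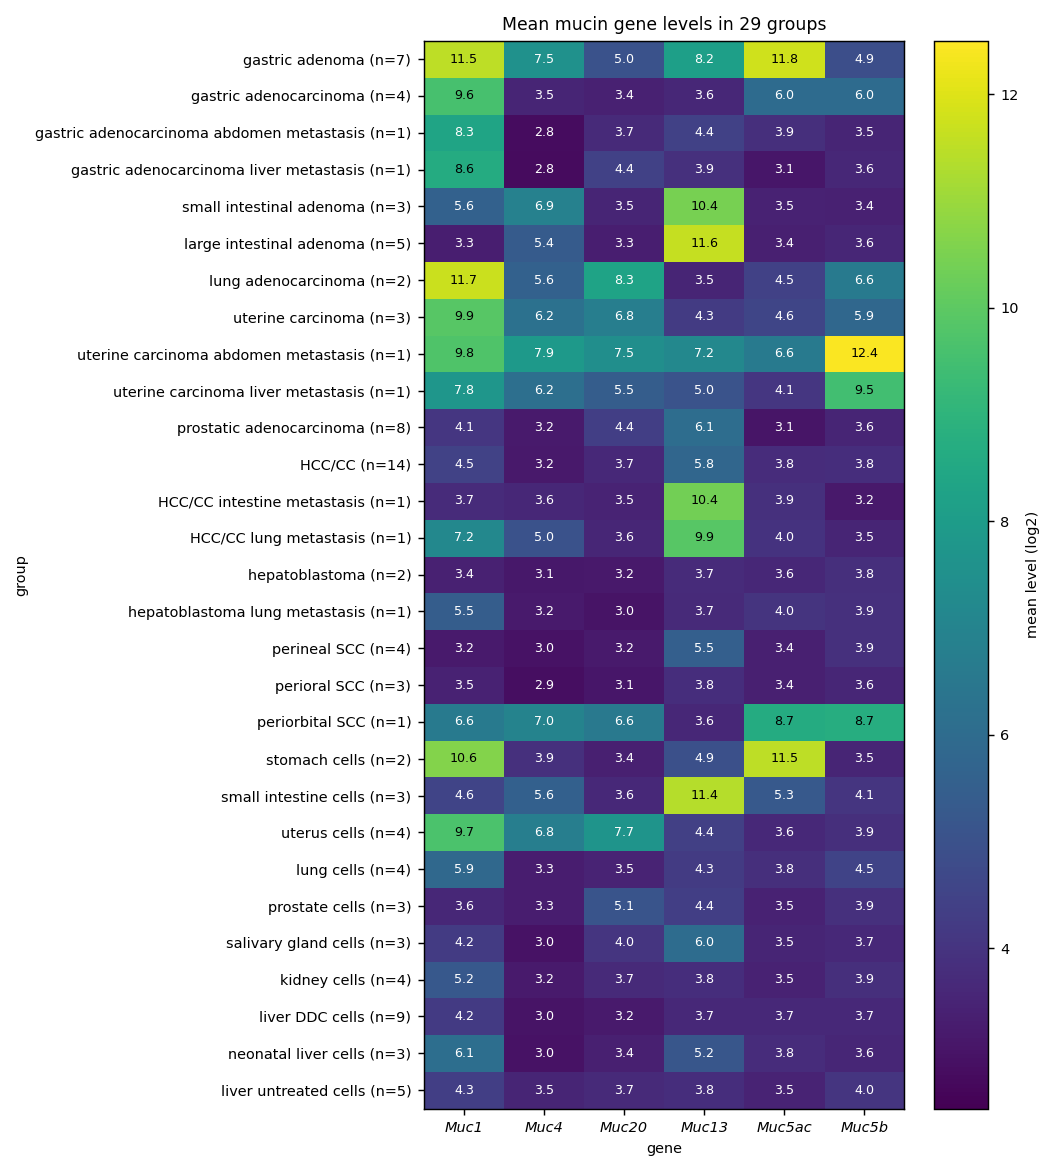
Mean log2 level of the 6 measured mucin genes (columns) in the 29 groups (rows), with the number of samples in each group; colours and printed numbers both give the mean. Muc1 and Muc5ac stood high together in gastric adenoma and stomach cells, Muc1 and Muc20 in lung adenocarcinoma, uterine carcinoma and uterus cells, and Muc13 in the gut groups; colours do not rank genes against each other.

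Gastric adenoma carried more of 5 of the 6 measured mucins than gastric adenocarcinoma. For the secreted surface mucin Muc5ac every adenoma lay above every adenocarcinoma. The membrane mucins Muc13 and Muc4 were near background in every or nearly every adenocarcinoma, and the ranges of Muc1 and Muc20 overlapped. The sizes of the differences are not ranked, because those against background levels are lower bounds. No mucin was called lower, and Muc5b was not called, though it was called lower in 1 of the fits with a sample left out. A call required a limma p-value below 0.05 after Benjamini-Hochberg adjustment over all genes tested, and a log2 difference of at least 1. By this rule 25.2% of 10968 genes tested were called in this comparison, 11.4% as higher in the adenomas. Genes were tested when their mean exceeded background in at least 1 of the groups compared. Muc4, Muc13 and Muc20 entered through the adenomas alone and could only be called higher, so the count of 5 is a description of the members and not a sign of their direction.

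Muc5ac levels were 12.32, 9.58, 11.74, 12.92, 12.64, 11.85 and 11.28 in the gastric adenomas (median 11.85), against 5.17, 6.39, 4.06 and 8.33 in the adenocarcinomas. The difference was 5.77 ± 0.45 on the log2 scale (SE, n = 7 and 4; limma adjusted p = 3e-14). This SE and p-value use a spread shared over all primary tumour groups of the fit, most of which averaged below background in Muc5ac. The SD was 1.11 in the adenomas and 1.83 in the adenocarcinomas, against 0.11 in prostatic adenocarcinoma. The SE is therefore smaller than the spread of the 2 compared groups alone would give. Every adenoma lay above every adenocarcinoma, and 1 adenocarcinoma was at background while another kept an intermediate level. The abdomen and liver metastases of gastric adenocarcinoma, 1 sample each, read 3.85 and 3.12, both below background.

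Muc4 read 6.54, 8.33, 8.66, 5.79, 8.03, 6.71 and 8.78 in the adenomas (median 8.03), against 2.92, 2.84, 3.76 and 4.60 in the adenocarcinomas. The difference was 4.02 ± 0.50 (SE, n = 7 and 4; limma adjusted p = 9.3e-09). The groups did not overlap, and 3 of the 4 adenocarcinomas and both metastases (2.84 and 2.81) were below background.

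Muc13 ranged widely within the adenomas, with 6.35, 10.41, 10.02, 9.84, 6.81, 4.78 and 8.92 (median 8.92), against 3.46, 3.68, 3.99 and 3.37 in the adenocarcinomas. The difference was 4.54 ± 0.99 (SE, n = 7 and 4; limma adjusted p = 0.00024). All adenocarcinomas were below background, and the lowest adenoma, sample 6, was just above it. The other Muc13 probe set gave 2.36 ± 0.66 (limma adjusted p = 0.0038). The second probe sets of Muc4 and Muc20 were near background in nearly every group.

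Muc20 was low in both, at 3.76, 5.18, 5.33, 4.94, 5.85, 3.32 and 6.76 in the adenomas (median 5.18) and 3.61, 3.19, 3.44 and 3.39 in the adenocarcinomas. Its difference was 1.61 ± 0.42 (SE, n = 7 and 4; limma adjusted p = 0.0018), and adenoma sample 6 lay within the adenocarcinoma range.

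Muc1 was uniform in the adenomas and uneven in the adenocarcinomas. It read 11.26, 11.78, 11.82, 11.48, 11.48, 10.98 and 11.76 in the adenomas (median 11.48), against 10.91, 7.34, 9.16 and 11 in the adenocarcinomas. The difference of 1.91 ± 0.74 (SE, n = 7 and 4; limma adjusted p = 0.032) rested on 2 adenocarcinomas. Without sample 2 it was 1.15 with an adjusted p of 0.25, without sample 3 it was 1.76 with 0.082, and adenocarcinoma sample 4 overlapped the adenomas. Sample 2 also had the lowest mean of general epithelial markers among the adenocarcinomas (8.98, against up to 11.24 in the others), whose part in the result was not tested. The abdomen and liver metastases read 8.34 and 8.64 for Muc1.

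Muc5b was above background in 2 of 7 adenomas, at 8.62 in sample 2 and 7.09 in sample 3, with the others from 3.44 to 4.06. In the adenocarcinomas it read 6.04, 3.73, 5.91 and 8.25. The groups overlapped, and the difference of -1.07 ± 0.73 (SE, n = 7 and 4) did not pass the test, with a limma adjusted p of 0.24. With each sample left out in turn it ran from -1.82 to -0.31. Muc5b was called lower in the adenomas in 1 of these 11 fits (lowest limma adjusted p = 0.036). Both metastases were below background, at 3.53 and 3.60.

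Markers of other cell types differed between these tumours as well. The mean of 5 gastric surface cell markers lay between 11.51 and 12.38 in the adenomas and between 5.37 and 8.68 in the adenocarcinomas, and all 5 were called higher in the adenomas. Markers of neck and chief cells read 8.22 to 10.18 in the adenomas, against 3.27 to 5.93 in the adenocarcinomas, and those of goblet cells 6.68 to 9.36, against 3.91 to 4.97. Enterocyte markers read 5.45 to 9.84 in the adenomas, against 4.04 to 4.59 in the adenocarcinomas, with 3 of 4 called higher. General epithelial markers overlapped, at 11.07 to 11.77 in the adenomas and 8.98 to 11.24 in the adenocarcinomas, and 0 of 7 were called. Macrophage markers were lower in the adenomas, at 4.63 to 7.09, against 7.39 to 8.08 in the adenocarcinomas, with 4 of 4 called. The part of these cell types in the mucin differences was not tested.

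**Figure D2:**
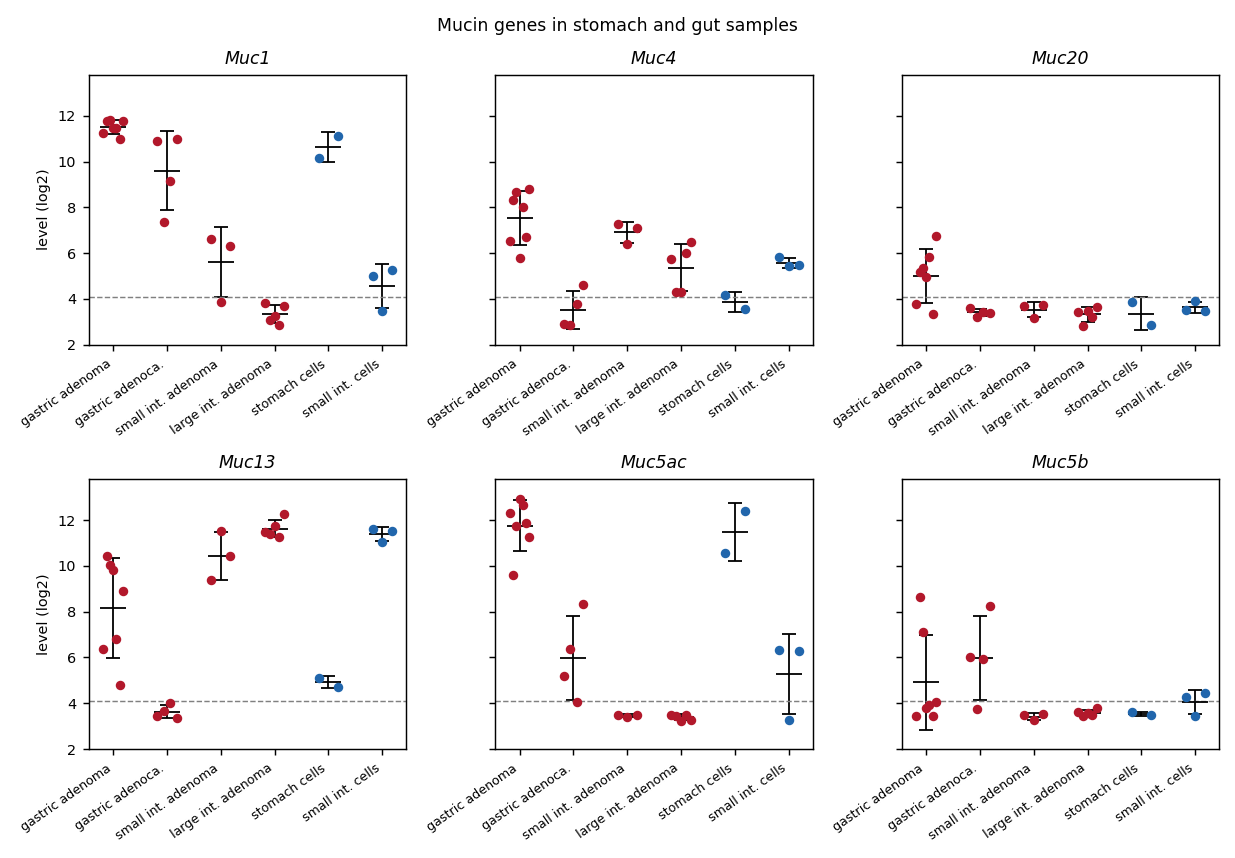
Log2 level of each measured mucin gene in stomach and gut tumours (red) and sorted cells (blue); points are samples, bars are mean ± SD and the dashed line marks background at about 4.1. Muc5ac, Muc4 and Muc13 in the 7 gastric adenomas lay above all 4 adenocarcinomas, and Muc13 in large intestinal adenomas lay between 11.27 and 12.25.

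The gut adenomas, which were set against the same 7 gastric adenomas in both comparisons, had levels of Muc13 and Muc4 above background. The membrane mucin Muc20 averaged below background in both gut groups, and the membrane mucin Muc1 in large intestinal adenoma. Muc5ac was below background in all gut adenomas, at 3.50, 3.39 and 3.50 in small intestinal adenoma and 3.22 to 3.48 in large intestinal adenoma. Gastric adenoma exceeded small intestinal adenoma by 8.30 ± 0.50 (SE, n = 7 and 3; limma adjusted p = 1.1e-17) and large intestinal adenoma by 8.38 ± 0.42 (SE, n = 7 and 5; limma adjusted p = 3.3e-21), both lower bounds. No gut adenoma came within the range of the gastric adenomas.

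Against small intestinal adenoma, 3 of the 6 mucins were called, all higher in gastric adenoma, where 9.89% of 10714 genes tested were called in either direction and 5.22% as higher. Besides Muc5ac these were Muc1, by 5.91 ± 0.82 (limma adjusted p = 5.2e-07), and Muc20, by 1.49 ± 0.47 (limma adjusted p = 0.022; SE, n = 7 and 3). Small intestinal adenomas had Muc1 levels of 6.63, 3.86 and 6.32, all far below the gastric adenomas. Muc5ac, Muc20 and Muc5b averaged below background in small intestinal adenoma. They were tested through gastric adenoma alone and could not have been called lower. The Muc20 call was lost without gastric adenoma sample 7 (adjusted p = 0.059) and without any of the 3 small intestinal adenomas. Muc4, at 7.26, 6.38 and 7.09 in small intestinal adenoma, fell within the gastric adenoma range, with a difference of 0.64 ± 0.55 (limma adjusted p = 0.45). Muc13 was at 9.39, 11.50 and 10.44, and the difference of -2.28 ± 1.10 did not pass the test (limma adjusted p = 0.15), while its other probe set was called lower in gastric adenoma, by -2.45 ± 0.73 (limma adjusted p = 0.017). Gastric surface cell markers averaged 11.51 to 12.38 in gastric adenoma and 6.47 to 7.17 in small intestinal adenoma, with 5 of 5 called higher, and enterocyte markers 5.45 to 9.84 in gastric and 7.7 to 9.93 in small intestinal adenoma, with 0 of 4 called. Their part in the mucin differences was not tested.

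Against large intestinal adenoma, 4 mucins were called higher in gastric adenoma and 1, Muc13, lower, where 13.9% of 10871 genes tested were called in either direction, 6.35% as higher and 7.54% as lower. Large intestinal adenomas had Muc13 levels of 11.48, 11.40, 11.75, 11.27 and 12.25, all above the highest gastric adenoma, and gastric adenoma was lower by a log2 difference of -3.47 ± 0.93 (SE, n = 7 and 5; limma adjusted p = 0.0042). Muc1 was below background in all large intestinal adenomas, at 3.84, 3.07, 3.25, 2.86 and 3.68, and higher in gastric adenoma by 8.17 ± 0.69 (SE, n = 7 and 5; limma adjusted p = 2.5e-13). Muc4 read 5.73, 4.29, 4.31, 6.02 and 6.50 there, overlapping the lower gastric adenomas, and was higher in gastric adenoma by 2.18 ± 0.46 (SE, n = 7 and 5; limma adjusted p = 0.00033). Muc20 was higher by 1.70 ± 0.40 (limma adjusted p = 0.001). Muc1, Muc5ac, Muc20 and Muc5b averaged below background in large intestinal adenoma. They were tested through gastric adenoma alone and could not have been called lower. Goblet cell markers averaged 6.68 to 9.36 in gastric adenoma and 9.35 to 10.16 in large intestinal adenoma, and enterocyte markers 5.45 to 9.84 in gastric and 8.27 to 10.56 in large intestinal adenoma. Gastric surface cell markers averaged 11.51 to 12.38 in gastric and 3.92 to 4.99 in large intestinal adenoma. Their part in the mucin differences was not tested.

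Large intestinal adenoma was also set against small intestinal adenoma, where 3 of the mucins were above the filter and 0 were called, beside 12.9% of 10874 genes tested. Muc1 was at 3.84 or below in the large intestinal adenomas, against 3.86, 6.32 and 6.63 in the small intestinal ones, a difference of -2.26 ± 0.86 (SE, n = 5 and 3) with a limma adjusted p of 0.055. Muc4 differed by -1.54 ± 0.58 (SE, n = 5 and 3) with an adjusted p of 0.05, and Muc13 by 1.19 ± 1.16 with 0.48. The unadjusted limma p-values were 0.012 for Muc1, 0.01 for Muc4 and 0.31 for Muc13. The ranges of Muc4 and Muc13 overlapped, and those of Muc1 nearly met. The count depended on single samples, as 1 mucin was called without large intestinal adenoma sample 4 or 5, or without small intestinal adenoma sample 2.

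Against Prominin1-sorted stomach cells, 1 of 6 mucins tested, Muc4, was called higher in gastric adenoma, beside 11.1% of 10960 genes called in either direction and 8.07% as higher. Without adenoma sample 6 the count was 2. Muc4, Muc5b and Muc20 averaged below background in stomach cells. They were tested through the adenomas alone and could not have been called lower. Stomach cells had Muc4 at 4.19 and 3.57, near background, and gastric adenoma was higher by 3.67 ± 0.76 (SE, n = 7 and 2; limma adjusted p = 0.012), with no overlap. Without stomach sample 2 the difference was 3.35 with an adjusted p of 0.084. Muc5ac, at 10.58 and 12.39 in stomach cells, lay within the adenoma range, with a difference of 0.28 ± 0.77 (limma adjusted p = 0.83). Muc1 was 10.17 and 11.11 in stomach cells, and its difference of 0.87 ± 0.27 missed the threshold (limma adjusted p = 0.054). Muc13, at 5.12 and 4.73, was lower in stomach cells than in 6 of the 7 adenomas, and its difference of 3.24 ± 1.37 did not pass the test (limma adjusted p = 0.13). Markers of fibroblasts (mean 6.76 in adenomas and 4.2 in stomach cells) and smooth muscle (7.05 and 3.97) were also higher in the adenomas, and their part in the Muc4 difference was not tested.

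**Figure D3:**
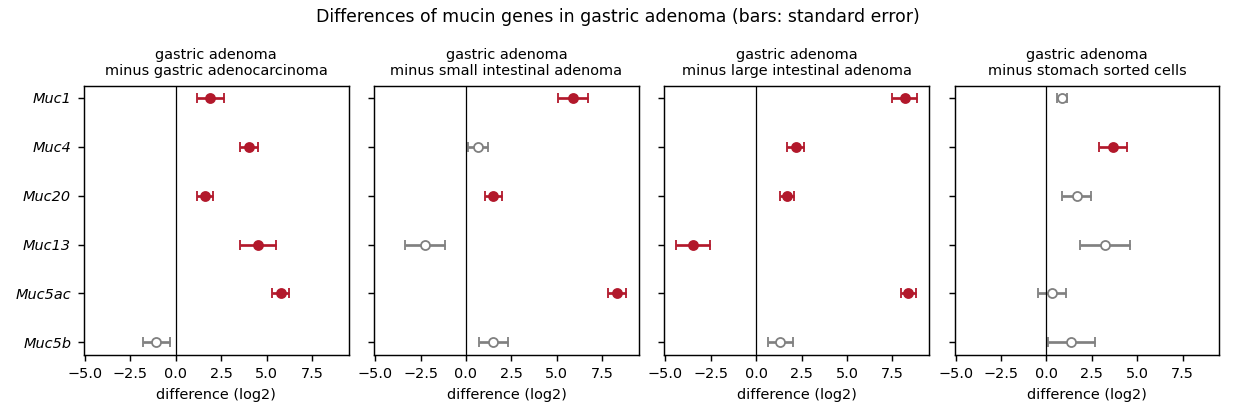
Log2 differences of the 6 measured mucin genes, gastric adenoma minus each of 4 groups, as points with SE bars from limma; filled points were called. Muc5ac was higher than in the adenocarcinomas and both gut adenomas but differed by 0.28 from stomach cells, and Muc13 was higher than in the adenocarcinomas and lower than in large intestinal adenoma.

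Gastric adenocarcinoma was also set against the same 2 stomach preparations. Of 4 mucins tested, Muc5ac and Muc13 were called, both lower in the adenocarcinomas, where 28.4% of 11237 genes tested were called in either direction and 10.5% as lower. Muc5ac differed by -5.50 ± 1.08 (SE, n = 4 and 2; limma adjusted p = 0.0079), with no overlap. Without stomach sample 2 the difference was -4.59 with an adjusted p of 0.079. Muc13 differed by -1.30 ± 0.30 (limma adjusted p = 0.014), between a low level in stomach cells and none above background in the adenocarcinomas, and its other probe set gave -0.34. Muc13 was thus tested through stomach cells alone and could not have been called higher. Muc1 differed by -1.04 ± 0.96 and Muc5b by 2.44 ± 1.02, and neither passed the test (limma adjusted p = 0.43 and 0.1). Gastric surface cell markers averaged 5.37 to 8.68 in the adenocarcinomas and 11.1 to 11.77 in stomach cells. Fibroblast markers read 7.48 to 8.47 in the adenocarcinomas and 3.88 to 4.51 in stomach cells, and macrophage markers 7.39 to 8.08 in the adenocarcinomas and 4.67 to 4.95 in stomach cells. Of these, 4 of 5 surface markers were called lower, and 5 of 5 fibroblast and 4 of 4 macrophage markers higher, in the adenocarcinomas. Their part in the mucin differences was not tested.

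Between small intestinal adenoma and Prominin1-sorted small intestine cells, 1 of 5 mucins tested, Muc4, was called, as higher in the adenomas, beside 22% of 11076 genes called in either direction and 13.6% as higher. Muc4 read 7.26, 6.38 and 7.09 in the adenomas, against 5.83, 5.43 and 5.46 in the cells, with no overlap and a difference of 1.34 ± 0.29 (SE, n = 3 each; limma adjusted p = 0.014). The adjusted p was 0.053 without adenoma sample 1 and 0.055 without adenoma sample 3, which left 0 calls, while 3 mucins were called without adenoma sample 2 and 2 without cell sample 2. Muc13, at 11.63, 11.06 and 11.52 in the cells, was high in both groups, and its difference of -0.96 ± 0.49 did not pass the test (limma adjusted p = 0.16). Muc5ac read 6.33, 3.28 and 6.26 in the cells, above background in 2 of 3 preparations, and differed by -1.83 ± 0.78 (limma adjusted p = 0.11). General epithelial markers read 11.99 to 12.10 in the adenomas and 11.02 to 11.09 in the cells, and fibroblast markers 5.83 to 7 in the adenomas and 3.43 to 4.09 in the cells. Their part in the Muc4 difference was not tested.

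The change against own-organ cells in stomach was also set against that in small intestine, by an interaction term. By limma 0 of the 6 mucins were called, beside 11.6% of 11619 genes, and 1 was called without gastric adenoma sample 4 or 6. The differences between the 2 changes were 2.33 ± 0.94 for Muc4 and 4.2 ± 1.7 for Muc13, each with a limma adjusted p of 0.11 and an unadjusted p of 0.026.

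The lung tumours had more of the membrane mucins Muc1, Muc20 and Muc4 than the sorted lung cells. Muc1 read 11.41 and 11.99 in lung adenocarcinoma, against 6.47, 4.85, 5.53 and 6.6 in lung cells, and Muc20 read 8.56 and 8.02, against 3.54, 3.72, 3.45 and 3.34. The ranges lay far apart in both, and Muc20 was below background in every preparation of lung cells. Of 6 mucins tested, 3 were called higher in the tumours and 0 lower, where 8.11% of 11195 genes tested were called in either direction and 5.73% as higher. Muc4, Muc20 and Muc5ac were tested through the tumours alone, being below background on average in the cells, so they could not have been called lower. The differences were 5.83 ± 0.64 for Muc1 (limma adjusted p = 0.00046) and 4.78 ± 0.54 for Muc20 (limma adjusted p = 0.00054; SE, n = 2 and 4). Muc4, at 6.51 and 4.73 in the tumours and 2.98, 3.41, 3.75 and 3.13 in the cells, differed by 2.31 ± 0.57 (limma adjusted p = 0.033). That call was lost without tumour sample 1 (1.42, adjusted p = 0.19), lung cell sample 2 (adjusted p = 0.091) or lung cell sample 4 (adjusted p = 0.1).

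Muc5b, the airway gel mucin, read 5.32 and 7.91 in lung adenocarcinoma, against 3.66, 3.95, 5.75 and 4.62 in lung cells. The ranges overlapped, and the difference of 2.12 ± 0.83 did not pass the test (limma adjusted p = 0.15). Lung adenocarcinoma and lung cells also differed in their makeup by markers. General epithelial markers read 10.13 and 10.62 in the tumours, against 6.14 to 6.81 in the cells, with 6 of 7 called higher. Alveolar type 2 markers were 13.04 and 13.22 in the tumours, against 8.64 to 11.17 in the cells, with 3 of 3 tested called higher. Macrophage markers read 7.99 and 8.13, against 9.12 to 11.26, with 3 of 4 called lower. The part of these cell types in the mucin differences was not tested.

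Uterine carcinoma and Prominin1-sorted uterus cells both expressed the membrane mucins Muc1, Muc4 and Muc20, and 0 of 6 mucins tested were called between them, beside 18.7% of 10906 genes tested. Muc1 read 10.06, 9.69 and 9.98 in the carcinomas, against 10.68, 8.93, 8.95 and 10.15 in the cells, with a difference of 0.23 ± 0.43 (SE, n = 3 and 4; limma adjusted p = 0.7). Muc20 read 7.50, 6.36 and 6.46, against 8.95, 7.53, 7.02 and 7.17, and Muc4 read 7.38, 6.80 and 4.52, against 7.87, 5.75, 5.46 and 7.97. Their differences were -0.90 ± 0.50 (limma adjusted p = 0.2) and -0.53 ± 0.87 (limma adjusted p = 0.66), with overlapping ranges. No mucin reached an unadjusted limma p under 0.05. Uterine epithelial markers also overlapped, at 8.91 to 9.73 in the carcinomas and 9.45 to 9.75 in the cells.

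Muc5b set single uterine tumours apart. It read 9.72, 3.50 and 4.35 in the carcinomas, 12.44 in the abdomen metastasis and 9.47 in the liver metastasis, against 3.89, 3.96, 3.69 and 3.92 in the cells. The carcinoma mean differed by 1.99 ± 1.30 (SE, n = 3 and 4; limma adjusted p = 0.27), carried by 1 carcinoma. The abdomen metastasis had the highest Muc5b level of all 103 samples. The labels do not say whether this carcinoma and the metastases came from 1 animal. The abdomen metastasis also had Muc5ac at 6.58 and Muc13 at 7.18, and the carcinomas read 6.19, 3.45 and 4.17 for Muc5ac.

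**Figure D4:**
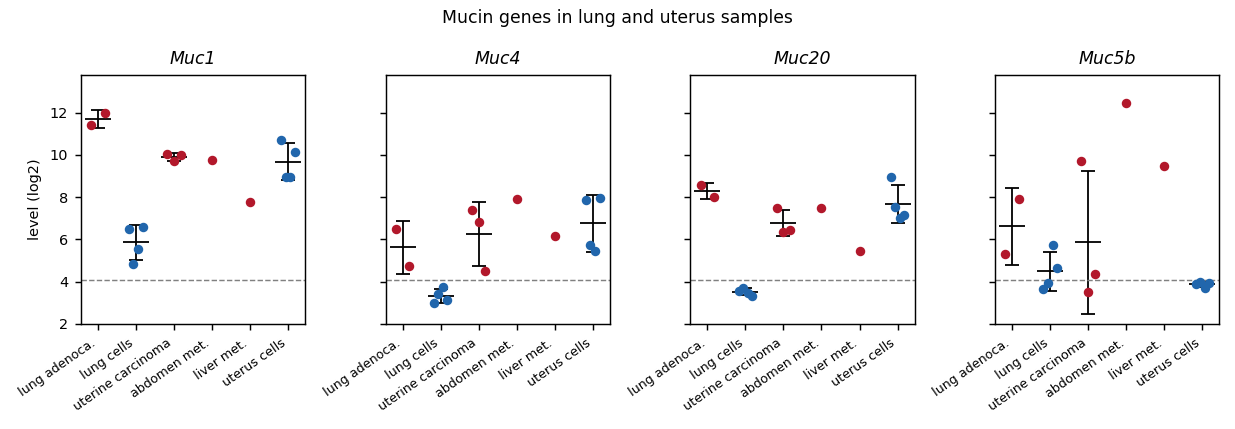
Log2 level of Muc1, Muc4, Muc20 and Muc5b in lung and uterine tumours (red) and in sorted cells of both organs (blue); points are samples, bars are mean ± SD and the dashed line marks background at about 4.1. Muc1 and Muc20 in lung adenocarcinoma lay above lung cells, whereas uterine carcinoma overlapped uterus cells, and Muc5b stood at 9.72, 12.44 and 9.47 in 1 uterine carcinoma and the 2 metastases.

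The sorted cells of the organs had mucin patterns of their own, each tested against the mean of the 7 other organs. Stomach cells were higher in Muc5ac, by 7.66 ± 0.41 (limma adjusted p = 4.3e-17), and Muc1, by 5.28 ± 0.57 (limma adjusted p = 4.5e-09), and lower in Muc20, by -1.12 ± 0.30 (limma adjusted p = 0.0053), a call lost without stomach sample 2. The SEs and p-values between organs use a spread shared over all sorted samples. For Muc5ac the SD was 1.28 in the 2 stomach preparations, against 0.2 in kidney cells. Of 13107 genes, 19.1% were called in stomach, 9.08% as higher and 10% as lower. Small intestine cells were higher in Muc13, by 6.89 ± 0.26 (limma adjusted p = 7.2e-22), and Muc4, by 1.71 ± 0.30 (limma adjusted p = 2e-05), and lower in Muc1, by -1.66 ± 0.47 (limma adjusted p = 0.0047), where 29.4% of genes were called, 14.3% as higher and 15.1% as lower. The Muc1 call in small intestine was lost without small intestine sample 2, at an adjusted p of 0.12. Uterus cells were higher in Muc20, by 3.81 ± 0.22 (limma adjusted p = 5.2e-16), Muc4, by 3.07 ± 0.27 (limma adjusted p = 2e-11), and Muc1, by 4.18 ± 0.42 (limma adjusted p = 5.9e-10), and lower in Muc5ac and Muc13, where 22.7% of genes were called, 15.3% as higher and 7.38% as lower. The Muc13 difference in uterus was under the size required without uterus sample 4, at -0.93, and by its other probe set, at -0.91. Each difference depends on the organs in the mean it is set against. Muc1 in small intestine cells (mean 4.57) lay below stomach (10.64) and uterus cells (9.68) but above untreated liver (4.35), salivary gland (4.23) and prostate cells (3.6). Likewise Muc20 in stomach cells (mean 3.36) was set against a mean that held uterus cells at 7.67. Muc13 in uterus cells (mean 4.4) lay below small intestine (11.4), salivary gland (6.04) and stomach cells (4.92). It lay above prostate (4.35), lung (4.26), kidney (3.81) and untreated liver cells (3.8). Lung and kidney cells were called only as lower, for Muc5ac and Muc13, which were near background there. In lung 31.4% of genes were called (18.6% as lower), and in kidney 33.5% (17.2% as lower). Muc5ac in lung, kidney and uterus cells, Muc13 in kidney cells and Muc20 in stomach cells averaged below background. They were tested through other organs, so a call as higher was hardly possible. Muc5ac in lung cells (mean 3.83) lay below stomach (11.48) and small intestine cells (5.29). It lay above the other organ means, the highest of them in uterus cells (3.64). The Muc5ac call in lung was lost without lung sample 1 (-0.9) or stomach sample 2 (-0.95).

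Among the liver tumours, mucin levels varied from tumour to tumour. Muc13 ranged from 3.57 to 9.5 in HCC/CC (median 5.94, n = 14), against 3.48 to 4.25 in untreated liver cells (n = 5). The difference was 2.01 ± 0.67 (SE; limma adjusted p = 0.02), 1 of 2 mucins tested, where 23.6% of 11075 genes were called, 17.4% as higher. Over all genes the median difference was 0.3, and with each array centred on its median the Muc13 difference was 1.65 (limma adjusted p = 0.052). The call rested on 1 of 2 Muc13 probe sets: the one dimmer on average gave -0.04, with a limma adjusted p of 0.94. That one read 4.45 to 5.11 in untreated liver cells, above background. By the probe set used, Muc13 averaged below background in untreated liver cells. It was there tested through HCC/CC alone and could not have been called lower. The difference between the 3' and 5' probe sets of actin, which grows with RNA degradation, was 0.67 to 1.29 in HCC/CC and 1.05 to 1.73 in untreated liver cells, and its part in the result was not tested. The single intestine and lung metastases of HCC/CC read 10.38 and 9.91 for Muc13. Muc1 was at 10.07 in HCC/CC sample 2 and 6.74 in sample 11, with a median of 3.47, and differed from untreated liver cells by 0.14 ± 0.88 (limma adjusted p = 0.91). The same samples had the highest mean of bile duct markers, 10.22 and 9.23, against 3.41 to 7.41 in the other HCC/CC, and the part of bile duct cells in these levels was not tested.

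Neonatal liver cells had Muc1 at 6.34, 5.83 and 6.16 and Muc13 at 5.49, 4.46 and 5.55, all above background. Untreated liver cells had Muc1 at 3.76, 6.81, 3.44, 3.55 and 4.17. Liver cells after DDC differed from untreated liver cells by -0.15 ± 0.43 in Muc1, the mucin tested (SE, n = 9 and 5; limma adjusted p = 0.8), where 21.7% of 10919 genes were called.

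Prostatic adenocarcinoma varied in Muc13, with 8.12, 11.01, 5.18, 3.9, 5.34, 6.87, 3.99 and 4.33, against 5.23, 3.95 and 3.87 in prostate cells. The ranges overlapped, and 0 of 2 mucins tested were called by limma, beside 21.1% of 10981 genes, with unadjusted p-values of 0.21 for Muc13 and 0.11 for Muc20. The difference in Muc13 was 1.74 ± 1.31 (SE, n = 8 and 3; limma adjusted p = 0.3), and without sample 2 it was 1.04 with an adjusted p of 0.35. That sample also read highest among the prostatic tumours in Muc4, at 5.43, and in markers of enterocytes (8.31, against 4.85 to 5.33 in the others) and goblet cells (6.92, against 4.35 to 5.22), and their part in these levels was not tested. Muc20 read 5.54, 5.01 and 4.80 in prostate cells and 3.15 to 5.41 in the tumours, which differed by -0.74 ± 0.42 (limma adjusted p = 0.18).

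Squamous carcinomas of perineal and perioral sites had low levels of most mucins. Muc13 read 7.81 and 6.39 in perineal samples 1 and 2, against 3.66 and 4.19 in samples 3 and 4. The single periorbital carcinoma stood out, with Muc5ac at 8.67, Muc5b at 8.74, Muc4 at 6.97, Muc1 at 6.61 and Muc20 at 6.56. Its salivary gland markers averaged 7.54, against 13.51 in salivary gland cells and at most 4.75 in the remaining groups, and its squamous markers 12.13. The part of gland cells in these levels was not tested.

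Of the other mucin genes on a list used for context, Muc3, a membrane mucin of the intestinal brush border, had group means close in pattern to those of Muc13. Muc3 read 5.42, 9.37, 9.22, 11.28, 9.99, 6.16 and 11.68 in gastric adenomas (median 9.37), against 2.81, 2.90, 5.73 and 2.66 in adenocarcinomas, a difference of 5.49 ± 1.16 (SE, n = 7 and 4; limma adjusted p = 0.00015). Large intestinal adenomas read 11.59, 12.31, 12.73, 11.68 and 12.91, and gastric adenomas differed from them by -3.23 ± 1.08 (limma adjusted p = 0.023). Of the gastric adenomas, sample 7 alone reached the range of the large intestinal ones. Gastric adenoma also exceeded stomach cells in Muc3, by 5.78 ± 1.51 (limma adjusted p = 0.029). Muc15, another membrane mucin, was found in squamous carcinoma, at 8.46, 9.51, 8.85 and 9.48 in perineal, 8.31, 7.71 and 7.98 in perioral and 8.18 in periorbital samples. Mucl2 (13.63, 13.66 and 13.59) and Prol1 (13.08, 13.12 and 13.05), genes of salivary mucins, were high in salivary gland cells. Mucl2 also read 9.21 in the periorbital carcinoma. Prol1 read 9.34 in prostate cells sample 1, against 3.76 and 3.52 in the other prostate preparations.

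Enzymes that build the sugar chains differed between gastric adenoma and adenocarcinoma along with the mucins. Of 24 listed O-glycosylation genes, 19 were tested, of which 11 were called higher in the adenomas and 1 lower. Over all genes tested, 25.2% were called, 11.4% as higher. The listed genes had a median difference of 1.37, beside -0.09 over all genes tested. A4gnt, which adds the terminal N-acetylglucosamine of gastric gland mucins, averaged 8.17 in the adenomas and 3.3 in the adenocarcinomas, a difference of 4.88 ± 0.65 (SE, n = 7 and 4; limma adjusted p = 4.9e-08). Galnt6, which starts chains on serine and threonine, averaged 9.38 in the adenomas and 6.01 in the adenocarcinomas (3.37 ± 0.53; limma adjusted p = 1.6e-06), and the sialyltransferase St6galnac2 7.84 and 4.41 (3.43 ± 0.52; limma adjusted p = 7.2e-07). Gcnt1, which branches the core, was the one called lower, with 4.75 in the adenomas and 7.69 in the adenocarcinomas (-2.94 ± 0.56; limma adjusted p = 3.2e-05).

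Genes of mucus granules and the mucus layer followed. Of 18 listed, 13 were tested, and 10 were called higher in the adenomas and 0 lower, with a median difference of 3.50, beside 11.4% of all genes called higher and a median of -0.09. This list shares 10 of its 18 genes with the marker lists. Clca1, a secreted protein of the mucus layer, averaged 12.27 in the adenomas and 3.27 in the adenocarcinomas (9 ± 0.85; limma adjusted p = 8.7e-12). Agr2, a disulfide isomerase needed to fold gel-forming mucins, averaged 12.47 and 6.94 (5.52 ± 0.86; limma adjusted p = 1.1e-06), and Fcgbp, a mucin-binding protein, 10.94 and 5.87 (5.07 ± 1.14; limma adjusted p = 0.00034). Of 19 transcription factors of mucous and gut epithelium, 13 were tested, 9 were called higher and 1 lower, with a median of 1.93, beside the same 11.4% and -0.09 over all genes. Genes of these lists that were near background in the adenocarcinomas could also be called in 1 direction alone. Foxa3 differed by 3 ± 0.39 (limma adjusted p = 2.4e-08), Foxa1 by 2.99 ± 0.53 (limma adjusted p = 9.6e-06), Gata4 by 2.75 ± 0.28 (limma adjusted p = 8.5e-11) and Spdef, a factor of mucous secretory cells, by 2.72 ± 0.49 (limma adjusted p = 1.5e-05).

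**Figure D5:**
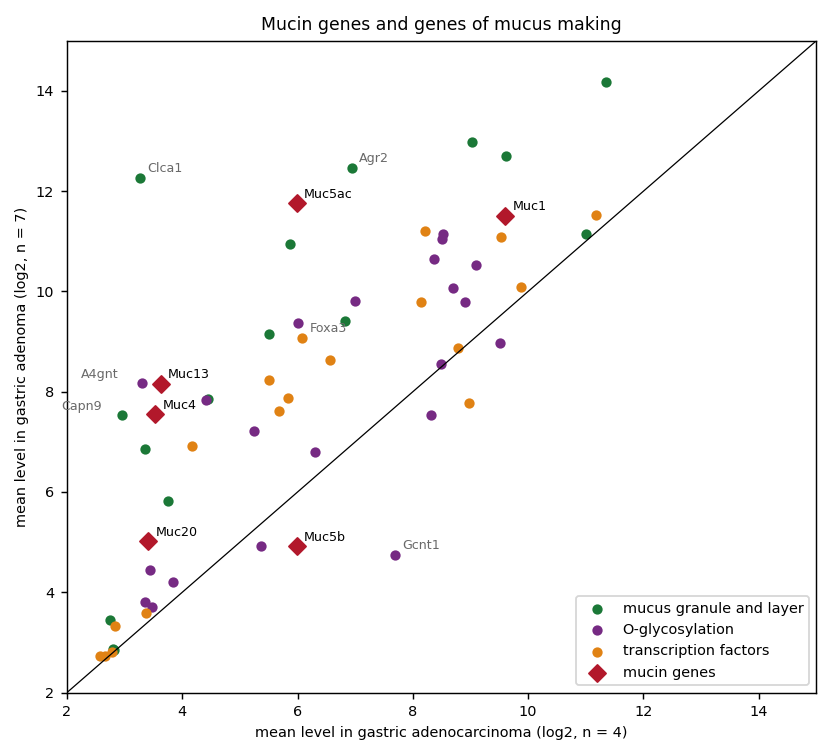
Mean log2 level in gastric adenoma (n = 7, vertical axis) against gastric adenocarcinoma (n = 4, horizontal axis) for the 6 measured mucin genes and 3 lists of mucus genes; the line marks equal levels. Muc5ac, Muc13 and Muc4 lay above the line with Clca1, Agr2 and A4gnt, and Muc5b and Gcnt1 lay below it.

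Gastric adenoma and the gut adenomas differed in transcription factors and mucus layer genes on these lists. Against small intestinal adenoma, 2 O-glycosylation genes of 19 tested were called, both higher in gastric adenoma, and 7 granule genes of 14 were higher with 0 lower, beside 9.89% of all genes called. The share of O-glycosylation genes was near that of all genes. Among 17 transcription factors 4 were higher and 4 lower. Sox2, a factor of stomach and foregut, averaged 8.63 in gastric adenoma and 2.63 in small intestinal adenoma (6 ± 0.72; limma adjusted p = 2.5e-08), and Cdx2, the factor of intestinal identity, 3.59 and 7.13 (-3.54 ± 0.35; limma adjusted p = 2e-10). Against large intestinal adenoma, Tff2 (9.53) and Tff1 (7.97), gastric trefoil peptides, were higher, and Retnlb (-8.04) and Zg16 (-7), products of colon goblet cells, were lower, as log2 differences. There 1 O-glycosylation gene was called higher and 3 lower of 20 tested, 7 granule genes higher and 4 lower of 15, and 7 factors higher and 4 lower of 17, beside 13.9% of all genes called.

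Set against stomach cells, gastric adenocarcinoma had lower levels of many of these genes. Of 21 O-glycosylation genes tested 9 were lower and 1 higher, of 13 granule genes 8 were lower, and of 14 factors 6 were lower, beside 10.5% of all genes called lower. A4gnt averaged 3.3 in the adenocarcinomas and 11.74 in stomach cells (-8.45 ± 0.32; limma adjusted p = 6.9e-06), and Agr2 6.94 and 13.30 (-6.36 ± 1.55; limma adjusted p = 0.018). In gastric adenoma A4gnt differed from stomach cells by -3.57 ± 0.82 (limma adjusted p = 0.019). Clca1, at 3.08, was among 2 granule genes of 13 called higher there, beside 8.07% of all genes. In lung adenocarcinoma 0 of 17 O-glycosylation and 0 of 6 granule genes tested were called, and 5 of 11 factors were higher than in lung cells, beside 5.73% of all genes called higher. Among them were Foxa1 (4.38 ± 0.69; limma adjusted p = 0.0029) and Foxa2 (4.13 ± 0.61; limma adjusted p = 0.002). In uterine carcinoma 2 of 16 O-glycosylation genes and 2 of 9 factors were higher than in uterus cells, 1 factor, Klf4, was lower (-2.76), and 0 of 8 granule genes were called, beside 18.7% of all genes.

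The genes whose group means ran most like those of each mucin, by Pearson correlation over 21 groups, describe the tissues shared and carry no test. They were Trim46 (0.854), the gene beside it, Il18r1 (0.818) and Cxcl17 (0.814) for Muc1, and Clca1 (0.833), Unc5cl (0.809) and Prap1 (0.798) for Muc4. For Muc5ac they were Gsdma2 (0.952), Vsig1 (0.952) and the parietal cell pump subunit Atp4b (0.937), and for Muc13 Trim31 (0.958), Muc3 (0.946) and Themis3 (0.944). For Muc20 they were Gm11627 (0.902), Rprm (0.83) and the alveolar surfactant protein gene Sftpd (0.821), and for Muc5b Plekhh2 (0.861), 9130015G15Rik (0.799) and Fgf18 (0.79). Among the mucins themselves, Muc1 ran most like Muc5b (0.69), Muc5ac (0.67) and Muc20 (0.63). Muc4 and Muc20, whose ends overlap on the genome, both were high in uterus and uterine carcinoma, but Muc4 was high in small intestinal adenoma, where Muc20 was near background.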

How the data were processed

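RNA of 103 mouse samples was hybridised to Affymetrix mouse arrays of perfect match probes. The values were deposited by the authors on the log2 scale. Partek 6.6 was used, per the submitters' processing notes, and how background was corrected and arrays normalized is not given in the sources used here. No scaling was added, and every column was used.

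Among 45141 probe sets, 104 were controls, 551 named more than 1 gene and 15588 had no entry in the array annotation, and these were set aside. Each gene was represented by its brightest probe set on average. limma 3.58.1 (R 4.3.3; empirical Bayes with an intensity trend) tested, in 18 comparisons, genes whose mean in a compared group exceeded the 40th percentile, with Benjamini-Hochberg adjustment in each. Tumours were compared in a fit over all primary tumour groups of at least 2 samples, organs over all sorted samples, and tumours with cells over the compared groups. An SE or p-value between tumours or between organs thus rests on the spread of all groups in the fit, not of those compared alone. The text names every listed mucin, at most the 4 called genes per list and comparison with the largest difference, the 3 genes most like each mucin by Pearson's r over group means, and Prom1. Muc15, Mucl2 and Prol1, of the other mucins listed, were named after their values were seen. Alternatives were quantile normalization, centring on medians, other filters and probe set rules, other samples in the fit, array weights, the gastric adenomas with a title number under 110 alone, and each sample left out. Chosen after seeing the data were tests of every probe set and of prostatic adenocarcinoma without sample 2. The code was tested on simulated data. The members and lists were chosen with earlier results of these data known. The number of arrays limits the precision.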

Additional observations from a re-analysis of the deposited data

Results flagged for a closer look

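Each mucin was checked for a sample standing apart from its group in 34 sets of 4 to 10 samples whose highest level exceeded background, and 2 sets held one. Chance gives about 1 in 20 such sets. Muc4 was 5.43 in prostatic adenocarcinoma sample 2, and the next highest of the 8 tumours was 3.08. The same sample had the highest Muc13 (11.01) and Muc3 (8.92) of its group. Muc1 was 6.81 in untreated liver cells sample 2, and the next of the 5 samples was 4.17.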

How the results depend on the processing

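No paired analysis was possible because the labels give no replicate numbers shared between groups. Of the counts of mucins called, 138 kept within 1.5 times under the other settings and 18 moved, and of the called differences 265 kept their call, 21 lost it and 1 turned its sign. The gastric adenoma against adenocarcinoma count stayed within 4 to 6 with any sample left out and within 1.5 times under every setting tried.

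Array weights gave 5 mucins in gastric minus small intestinal adenoma (3 in the fit reported), 2 in large minus small intestinal adenoma (0), 2 in small intestinal adenoma minus its cells (1) and 1 in lung cells (2). Median centring gave 1 in large minus small intestinal adenoma and 0 in HCC/CC (1). The Muc4 call was lost by it in small intestinal adenoma minus its cells (0.95, under the size required). It was also lost in lung adenocarcinoma (1.95, limma adjusted p = 0.1). A fit of the compared groups alone gave 1 in large minus small intestinal adenoma. A fit over all 95 samples gave 3 in gastric adenoma minus stomach cells (1) and 1 in uterine carcinoma (0). In that fit Muc4 lost its call in small intestinal adenoma minus its cells (limma adjusted p = 0.068). Muc13 lost its call there in gastric adenocarcinoma minus stomach cells (limma adjusted p = 0.35). The stricter filter gave 1 in gastric adenocarcinoma minus stomach cells (2) and 0 in HCC/CC. Averaging all probe sets per gene gave 1, 0 and 0 in gastric adenocarcinoma minus stomach cells, small intestinal adenoma minus its cells and HCC/CC. It brought the Muc20 differences of gastric adenoma under the size required, at 0.91 against adenocarcinoma, 0.75 against small and 0.85 against large intestinal adenoma. The Muc4 call in lung adenocarcinoma was lost by this averaging as well (1.27, limma adjusted p = 0.093). Without probe sets whose names end in _a_at, _s_at or _x_at there was 1 in gastric adenocarcinoma minus stomach cells. There were 0 in HCC/CC, where Muc13 gave -0.04, and 1 each in lung and kidney cells (2 each). The causes were not tested. With the gastric adenomas of low title number alone, Muc1 differed from adenocarcinoma by 2.02 with a limma adjusted p of 0.094.

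With each sample left out in turn, the counts ranged 2 to 3 for gastric minus small and 5 to 5 for gastric minus large intestinal adenoma, 0 to 1 for large minus small, 1 to 2 for gastric adenoma and 1 to 3 for gastric adenocarcinoma minus stomach cells, and 0 to 3 for small intestinal adenoma minus its cells. They ranged 2 to 3 for lung adenocarcinoma, 1 to 3 for lung cells, 0 to 1 for the interaction, 2 to 3 for stomach and kidney cells and 4 to 5 for uterus cells, and were 0 for uterine and prostatic tumours, 1 for HCC/CC and 3 for small intestine cells throughout. Over all genes tested, array weights gave 1656 calls in gastric minus small intestinal adenoma (1060), 730 in gastric adenoma minus stomach cells (1220) and 2461 in lung adenocarcinoma (908), the fit over all 95 samples 3628 in lung adenocarcinoma, and the stricter filter 934 in large minus small intestinal adenoma (1405). Levels near background limit what can be said of Muc4, Muc13 and Muc20 where they are low.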
